A study of Mus musculus with 22 samples.

Results

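Motor neurons of the spinal cord use acetylcholine as their transmitter, and 9 genes of these cells and of acetylcholine signaling were followed through lumbar RNA-seq of mice with knee joint pain. The genes were chosen by symbol, as those whose name in the deposited expression table is Chat, Slc18a3, Slc5a7, Ache, Isl1, Mnx1, Prph, Calca or Chodl, and all 9 of 9 were found among the 17306 genes in the table. They served as a reading of how much ventral horn each piece of cord held. The table covers 22 wildtype C57BL6J mice, 12 to 14 weeks old when collected, which all received 1 mg of sodium iodoacetate (MIA) into the knee, an injection that damages the joint and causes lasting pain.

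SAFit2, a selective inhibitor of the stress-response protein FKBP51, was given at 100 mg/kg in a slow-release vesicular phospholipid gel, and vehicle mice received the gel alone. The 4 groups were 5 Early SAFit2 mice, 6 Early vehicle mice, 5 Late SAFit2 mice and 6 Late vehicle mice. Early gel was given on days -3 and 4 around the MIA injection by the study's methods (the sample labels give days 3 and 4), late gel on days 20 and 27, and L4 to L6 cord was collected on day 30. There was no group without MIA. The labels name Early and Late as batches, so timing and batch cannot be told apart. The titles of the Early SAFit2 mice read SAFit1, and their treatment label, used here, reads SAFit2. The study's text places the RNA in ipsilateral dorsal horn quadrants, and its methods speak of lumbar quadrants.

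In a motor neuron, Slc5a7 brings choline into the nerve ending, Chat joins it to an acetyl group, Slc18a3 loads the acetylcholine into vesicles, and Ache breaks it down after release. Isl1 and Mnx1 are homeodomain transcription factors of the motor neuron lineage. Prph is the neurofilament protein peripherin of neurons that send axons out of the cord, Calca encodes calcitonin gene-related peptide, and Chodl encodes a lectin-like membrane protein of fast motor neurons. None of these genes is limited to motor neurons, since some interneurons are cholinergic, sensory neurons make Calca and Prph, and Isl1 is also used by other neurons. In bulk cord RNA, fewer motor neurons and less RNA per motor neuron cannot be told apart.

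Chat and Slc18a3 form a nested pair. In GRCm38 the Chat gene runs over chr14:32408203-32465989 on the minus strand, and Slc18a3 (chr14:32462438-32464850, minus strand) lies whole inside it, with 0 exon bases shared between the genes. The other cholinergic genes lie apart, Slc5a7 at chr17:54273590-54299034 (minus strand) and Ache at chr5:137287519-137294466 (plus strand). The remaining genes are Isl1 at chr13:116298281-116309689, Mnx1 at chr5:29473034-29478470 and Calca at chr7:114631478-114636357, all on the minus strand, and Prph at chr15:99055174-99058978 and Chodl at chr16:78930948-78951733 on the plus strand. Ache shares 98 exon bases with an unnamed gene on the opposite strand, Gm42456, which has no row in the table analysed here.

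The sequence upstream of the choline transporter, the synthetic enzyme and the vesicle loader is shown because these 3 genes make up the transmitter pathway and rose and fell together among the mice, as described next. The sequences come from RefSeq (GRCm38.p6), in which all 9 genes had a promoter entry, and are written 5′ to 3′ on the strand of the gene, ending just before the gene. Capitals mark matches on either strand to CAGCTG (an E-box), TATAAA or GGGCGG (reverse CCGCCC, a GC box). The Chat stretch is chr14:32465990-32466159, the Slc18a3 stretch chr14:32464851-32465100 and the Slc5a7 stretch chr17:54299035-54299284, all from the minus strand.
Chat: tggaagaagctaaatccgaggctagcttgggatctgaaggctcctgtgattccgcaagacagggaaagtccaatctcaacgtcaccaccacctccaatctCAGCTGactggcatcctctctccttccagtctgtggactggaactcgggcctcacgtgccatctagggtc
Slc18a3: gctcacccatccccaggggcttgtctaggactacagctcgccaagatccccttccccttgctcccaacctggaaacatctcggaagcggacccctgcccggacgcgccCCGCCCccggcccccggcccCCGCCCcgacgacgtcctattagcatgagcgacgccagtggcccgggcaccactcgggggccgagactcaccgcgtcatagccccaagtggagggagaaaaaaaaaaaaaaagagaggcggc
Slc5a7: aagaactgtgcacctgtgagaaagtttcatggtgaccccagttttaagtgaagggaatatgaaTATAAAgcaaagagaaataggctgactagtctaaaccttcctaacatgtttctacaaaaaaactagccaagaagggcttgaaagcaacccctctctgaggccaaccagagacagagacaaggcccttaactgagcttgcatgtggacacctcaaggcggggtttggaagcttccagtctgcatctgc

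The RefSeq starts of Chat and Slc18a3 lie 1059 bases apart. Over the 250 bases before each RefSeq start, GC content was 54.8% for Chat, 66.0% for Slc18a3 and 45.6% for Slc5a7, against a median of 52.4% over 32851 promoters. The E-box CAGCTG was found upstream of Chat and Isl1, 2 of the 9 genes, and in 13.0% of all promoters. TATAAA was found upstream of Slc5a7 and Prph, 2 of 9 against 12.4% of all promoters. The GC box stood before Slc18a3, Ache, Mnx1 and Prph, 4 of 9 against 32.7%. The homeodomain core TAATTA was in none of the 9 windows and in 4.84% of all promoters, and none of the motifs searched stood before all 3 transmitter genes.

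Every member passed the filter on low values (at least -1 in 5 libraries on the scale of log2 CPM, CPM being reads scaled to library size), and so did 16765 genes in all. Libraries held 11352989 to 24433349 reads on genes. Per kilobase of exon, Ache was the most abundant member, with a median of 26.2 CPM per kb, followed by Prph at 15.3. Calca at 6.45, Slc18a3 at 5.11 and Slc5a7 at 4.79 were next, and Chodl at 2.50 and Chat at 1.77 were lower. The transcription factors were rare, with medians of 0.461 CPM per kb for Isl1 and 0.210 for Mnx1. Neighbours in this order were not tested against each other, and the ranges of Calca, Slc18a3 and Slc5a7 over mice overlapped.

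Chat was read in all 22 libraries, with 21 to 421 reads, and its level varied more among mice of a group than between groups. In log2 CPM, the 5 Early SAFit2 mice were at 4.54, 1.45, 4.41, 3.53 and 1.29, and the Early vehicle mice ran from 1.78 to 3.79 with a median of 2.90. The 5 Late SAFit2 mice were at 2.49, 4.49, 4.28, 1.93 and 1.30, and the Late vehicle mice ran from 2.02 to 3.89 with a median of 3.18. Each SAFit2 group thus held mice above and mice below the range of its vehicle group, and all 4 groups overlapped. The highest library had 9.88 times the CPM of the lowest.

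Slc5a7, the choline transporter, varied most. The Early SAFit2 mice were at 6.89, 0.49, 5.83, 5.28 and 2.33 log2 CPM, and the Late SAFit2 mice at 4.10, 7.31, 6.64, 4.44 and 4.32. The Early vehicle mice ran from 2.94 to 5.26 (median 4.69) and the Late vehicle mice from 2.71 to 6.32 (median 4.83). The same mice stood high as for Chat, numbers 1 and 3 of Early SAFit2 and 2 and 3 of Late SAFit2. From the lowest library, with 25 reads, to the highest, with 2142, CPM differed 123-fold. The within-group SD was 1.68 log2 units, which placed Slc5a7 21st of 16765 genes, 99.9% of which had a lower SD. The median SD of all genes was 0.325.

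The vesicle loader Slc18a3 ranked 23rd by within-group SD (1.65) and ran from 0.26 to 5.07 log2 CPM in Early SAFit2 mice, 1.10 to 4.91 in Early vehicle, 1.02 to 5.31 in Late SAFit2 and 2.48 to 4.83 in Late vehicle mice. Prph spanned 1.92 to 6.66 log2 CPM (SD 1.44, a 27.4-fold range of CPM) and Chodl 1.56 to 6.65 (SD 1.42, 35.3-fold). Chat and Isl1, with SDs of 1.12 and 1.11, were more spread than 97.2% and 96.8% of genes. Calca was less spread, at 2.46 to 4.99 log2 CPM (SD 0.755, above 84.2% of genes). Ache, with an SD of 0.368, lay near the middle of all genes, above 57.5% of them.

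Mnx1, the transcription factor that marks the lineage early, was near the limit of detection, with 0 to 26 reads. It had 20, 0, 25, 17 and 0 reads in the Early SAFit2 mice, 2, 22, 18, 0 and 0 in the Late SAFit2 mice, 1 to 26 in the Early vehicle mice and 0 to 13 in the Late vehicle mice. Of the 6 libraries without a read, 5 had Chat at 2.02 log2 CPM or below, and Late vehicle mouse 6 had it at 3.22. Isl1 had 4 to 79 reads, at 1.11, -0.18, 0.98, 0.88 and -0.84 log2 CPM in Early SAFit2 and 1.08, 2.57, 1.60, -0.96 and 2.34 in Late SAFit2 mice. Late SAFit2 mouse 5 thus had Isl1 near its highest level while its Chat was near its lowest.

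**Figure D1:**
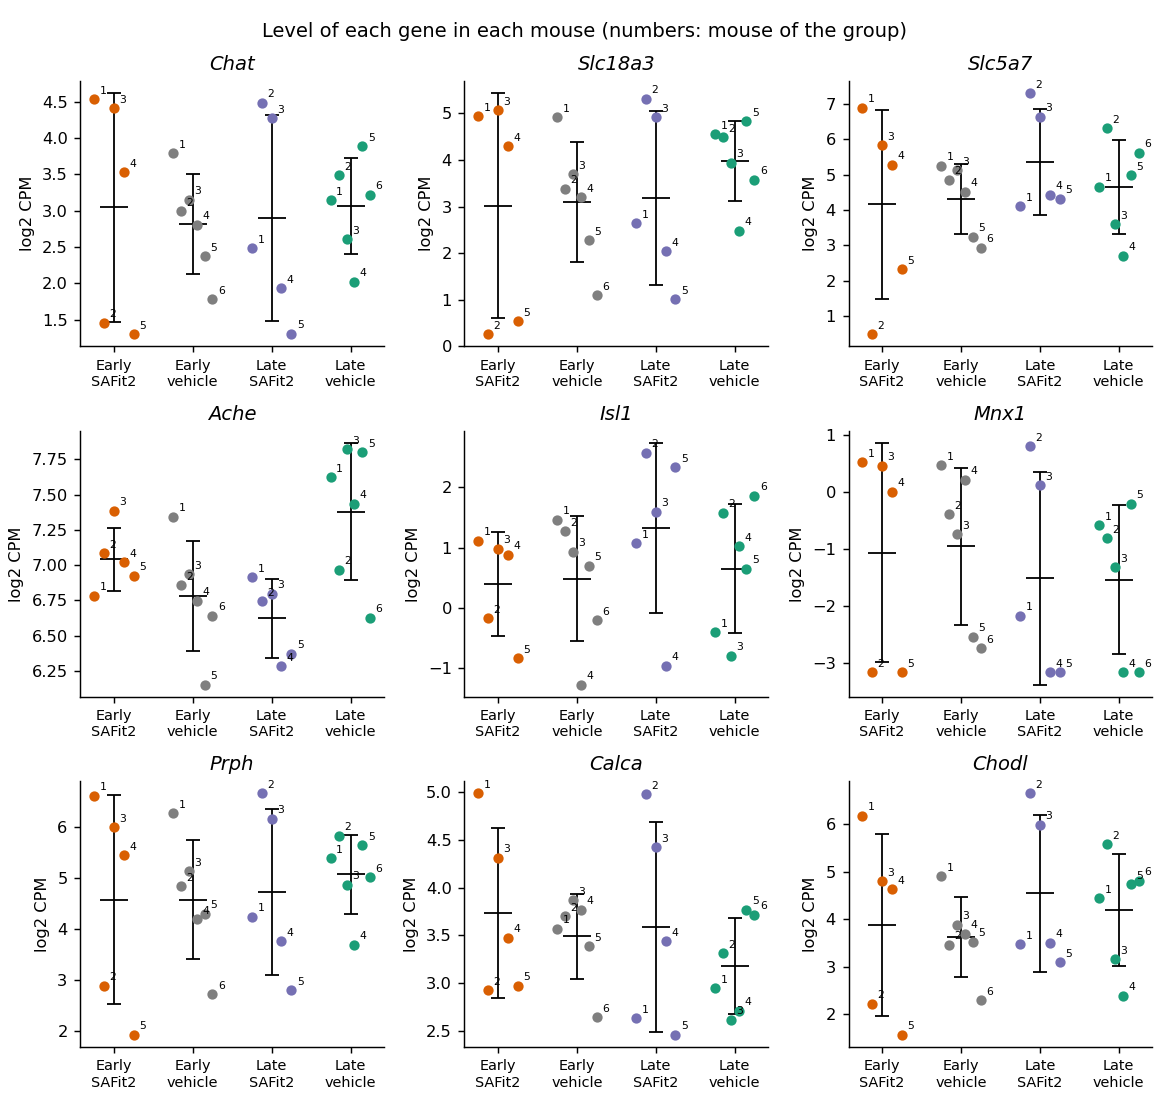
Log2 CPM (vertical axis) of each gene in each of 22 mice by group (horizontal axis), with the mouse number beside each point and the group mean ± SD in black. Early SAFit2 mice 1 and 3 and Late SAFit2 mice 2 and 3 stand high, and Early SAFit2 mice 2 and 5 low, in most panels, whereas Ache spans 6.15 to 7.82 only.

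The ranks showed the same mice across genes. Late SAFit2 mouse 2 was among the 5 highest of the 22 mice for 8 of the 9 genes, and Early SAFit2 mice 1 and 3 and Late SAFit2 mouse 3 for 7 each. Early SAFit2 mouse 5, Early vehicle mouse 6 and Late SAFit2 mouse 5 were among the 5 lowest for 7 genes each, and Early SAFit2 mouse 2 for 6. High and low mice thus occurred in the SAFit2 group at each timing. The mean log2 CPM of the 9 genes averaged 3.20 ± 1.56 (SD, n = 5) with early SAFit2 and 3.14 ± 0.804 (SD, n = 6) with early vehicle gel. With late gel it averaged 3.41 ± 1.30 and 3.402 ± 0.654.

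Libraries were then compared for RNA of neighboring tissue. Late SAFit2 mouse 2, the highest for 6 of the 9 genes, had 9 reads of Prx, a protein of myelinating Schwann cells, against 748 to 9138 in the other libraries. Late SAFit2 mice 3 and 5 carried skeletal muscle RNA, with Tnnt3, a fast muscle troponin, at 6.27 and 5.76 log2 CPM, and no other library above 1.45. One of these was high for motor neuron genes and the other low. Of 15 sensory ganglion genes 8 were not in the table, Scn10a and Trpv1 among them. Relations of Chat and Ache are given below with and without these 3 libraries where the text turns on them.

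Across the 22 mice, with group means removed, 7 of the genes rose and fell as a block. Chat correlated with Slc18a3 at Pearson r = 0.976 (Spearman rho = 0.968, permutation P = 1e-05, the smallest that 100000 draws can give, adjusted P = 4.5e-05 over 36 pairs of genes). Its r was 0.974 with Prph, 0.948 with Chodl, 0.906 with Slc5a7, 0.904 with Mnx1 and 0.878 with Calca. Among the 21 pairs of these 7 genes r ran from 0.727 (Mnx1 and Calca) to 0.976 with a median of 0.896, and every pair had an adjusted P below 0.05. The 7 genes were singled out after their values were seen, and no test was made of the group as such. The lowest r among the 21 pairs was 0.811 within Early mice, 0.663 within Late mice, 0.677 without the 2 mice farthest from the median, and 0.593 without the 3 libraries named above.

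Slc18a3 and Chat lie in the same locus, and Prph and Chodl lie on other chromosomes. Chat gave an r of 0.121 with library depth (permutation P = 0.613, -0.114 without the 3 libraries) and of 0.0199 with the GC slope of the library (permutation P = 0.923, -0.0199 without the 3 libraries), the slope of log2 level on gene GC content defined below.

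Isl1 and Ache stood outside the block. Isl1 correlated with Chat at r = 0.488 (rho = 0.516, permutation P = 0.0317, adjusted P = 0.0439), with 0.696 in Early and 0.323 in Late mice, 0.577 without the 2 farthest mice and 0.546 without the 3 libraries. Ache correlated with Chat at r = 0.283 (rho = 0.315, permutation P = 0.14, adjusted P = 0.168, r = 0.212 without the 3 libraries), and with Slc5a7 at r = 0.025 (permutation P = 0.903, r = -0.0499 without them). Of all 36 pairs 26 had an adjusted P below 0.05, and the only pair with Ache among them was that with Mnx1 (r = 0.506, adjusted P = 0.0233).

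**Figure D2:**
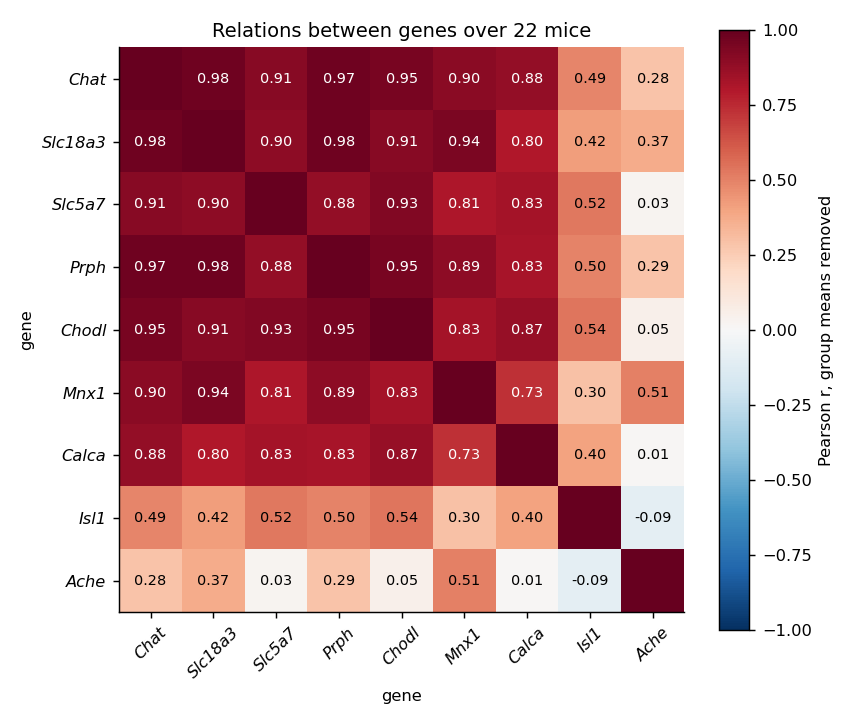
Pearson r between each pair of genes over 22 mice after removal of group means, with rows and columns as genes and the color scale from -1 to 1. The upper left block of 7 genes holds r of 0.73 to 0.98, and the rows of Isl1 and Ache are paler, with r from -0.09 to 0.54.

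**Figure D3:**
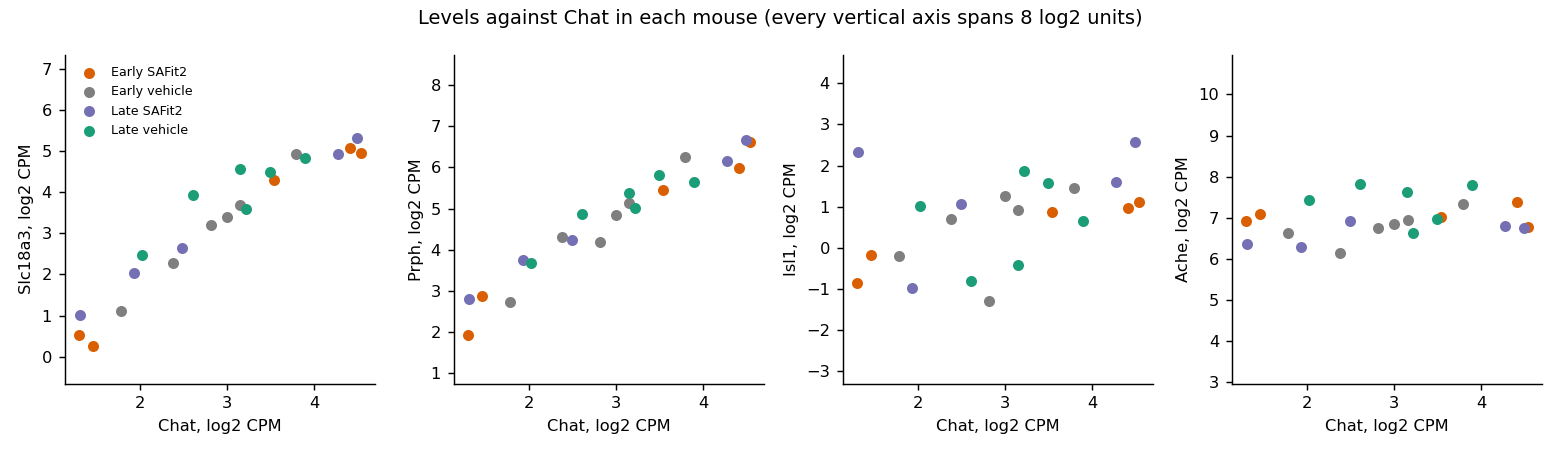
Log2 CPM of Slc18a3, Prph, Isl1 and Ache (vertical axes, each 8 log2 units) against Chat (horizontal axis) in each mouse, colored by group. Slc18a3 and Prph climb with Chat in all 4 groups, Isl1 scatters, and Ache stays between 6.15 and 7.82.

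Over all 16764 other genes tested, the median r to Chat was 0.00915, and 39 genes had an r over 0.8. Of the 20 genes most like Chat 6 were members, with Slc18a3 first, Prph second, Chodl 5th, Slc5a7 9th, Mnx1 11th and Calca 18th, while Isl1 ranked 598th. The 5 other genes with the highest r were Slc10a4 (0.966), a transporter-like protein of cholinergic vesicles, Kcnj14 (0.952), an inward rectifier potassium channel, Ahnak2 (0.940), Nefl (0.934), the light neurofilament subunit of large axons, and Palm3 (0.921). Slc10a4 ran from -0.26 log2 CPM in Early SAFit2 mouse 5 to 5.39 in Late SAFit2 mouse 2, the same low and high mice as the members. Nefl, an abundant gene, moved over a narrower span, from 9.75 to 11.4 log2 CPM.

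Chat was next set against listed genes of other cells. The summed CPM of 20 further motor neuron genes followed it (r = 0.915, rho = 0.909, permutation P = 2e-05, adjusted P = 0.00012 over 18 relations), with 0.930 in Early and 0.906 in Late mice, 0.895 without the 2 farthest mice and 0.873 without the 3 libraries. Not every one of these genes did so. Foxp1 had an r to Chat of -0.269, and Htr1d, Stac2 and Esrrb had 0.211, 0.240 and 0.259. The others ran from 0.494 for Bcl6 to 0.966 for Slc10a4. The summed CPM of 25 dorsal horn genes, among them Sst, Penk and Tac1, ran the other way (r = -0.752, rho = -0.766, permutation P = 0.00216, adjusted P = 0.00778). That r was -0.733 in Early and -0.780 in Late mice, -0.673 without the 2 farthest mice and -0.634 without the 3 libraries. With the mean log2 CPM in place of the sum it was -0.593 (permutation P = 0.0124, adjusted P = 0.0279), and -0.443 without the 3 libraries. Mice rich in motor neuron RNA thus had a lower summed CPM of these dorsal horn genes, within each batch as over all mice. Single genes of the list differed. Gbx2, Calb2 and Grpr had a positive r to Chat (0.376, 0.323 and 0.246). The rest had a negative r, from -0.0553 for Lmx1b to -0.746 for Penk and -0.755 for Tac2.

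The dorsal horn sum itself overlapped between the groups, at 780 to 1113 CPM in Early SAFit2, 959 to 1307 in Early vehicle, 892 to 1227 in Late SAFit2 and 1020 to 1226 in Late vehicle mice. The summed CPM of 24 acetylcholine receptor and handling genes in the table rose with Chat at r = 0.644 (permutation P = 0.0035, adjusted P = 0.0105, r = 0.556 without the 3 libraries), and their mean log2 gave 0.469 (permutation P = 0.0356, adjusted P = 0.0641, r = 0.306 without them). Ventral interneuron genes gave an r of -0.407 for the sum (permutation P = 0.0787, adjusted P = 0.118). For their mean log2 CPM it was 0.614 (permutation P = 0.0121, adjusted P = 0.0279, r = 0.636 without the 3 libraries), so the sign depended on the measure. Sensory ganglion genes gave -0.552 (permutation P = 0.0326, adjusted P = 0.0641) and 0.0229, Schwann cell genes -0.463 and -0.474, and skeletal muscle genes -0.00805 and 0.0514 for the sum and the mean, none with an adjusted P below 0.05. Without the 3 libraries the sums gave -0.359 for ventral interneuron, -0.238 for sensory ganglion, -0.309 for Schwann cell and -0.103 for muscle genes. The muscle sum included Pvalb, with group means of 6.32 to 7.03 log2 CPM, while no other gene of that list had a group mean above 2.12. That sum is therefore not a reading of muscle RNA alone.

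Whether SAFit2 changed these genes was tested with limma over all 16765 genes and the 4 groups. A gene was called at a Benjamini-Hochberg adjusted P below 0.05 and a change of at least 1.2-fold. After early gel none of the 9 genes was called, and 0% of all genes were. None of the 9 had an unadjusted P below 0.05 either, against 416 of all genes (2.48%), and limma voom on recovered reads also called 0 members and 0 genes. The log2 fold changes ran from -0.16 for Slc5a7 (SE 0.85) to 0.26 for Ache (SE 0.20). For Chat the change was 0.23 with a 95% interval from -0.96 to 1.42, so a 2-fold rise lay within the interval.

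After late gel 12.1% of all genes were called (894 higher and 1127 lower) and 1 of the 9 members, Ache, which fell by 0.76 on the log2 scale (SE 0.20, 95% interval -1.16 to -0.35, limma adjusted P = 0.0327). The other changes were -0.79 for Slc18a3 (SE 0.84), 0.71 for Slc5a7 (SE 0.85), 0.67 for Isl1 (SE 0.60), 0.41 for Calca (SE 0.40), 0.36 for Chodl (SE 0.72), -0.35 for Prph (SE 0.73), -0.16 for Chat (SE 0.58, 95% interval -1.35 to 1.02) and 0.02 for Mnx1 (SE 0.87). None of these passed the test, and the intervals are wide because mice of a group differed so much. Ache had a share of 1 in 9 against a background of 12.1%, so the members were not called more often than other genes. The median change of the 9 genes was 0.02, and that of all genes -0.05.

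**Figure D4:**
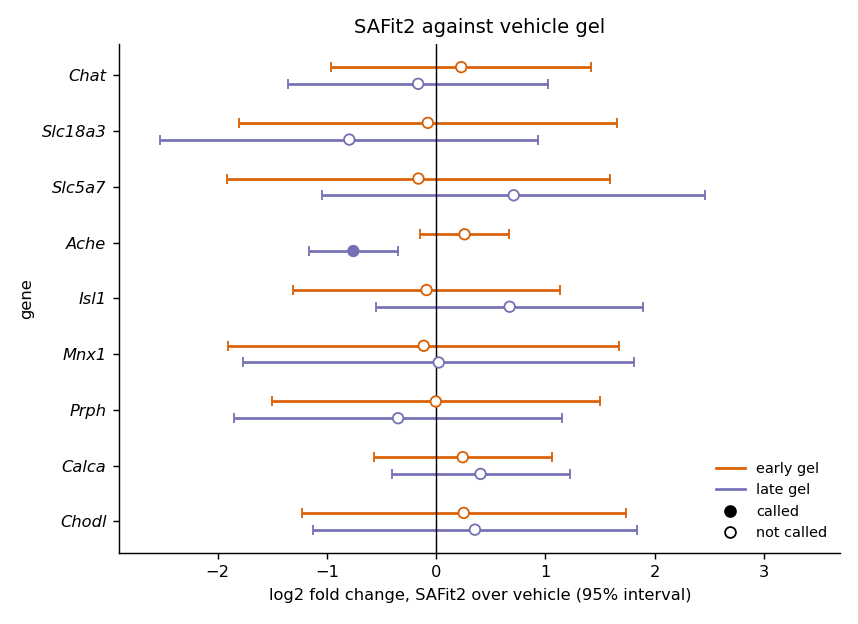
Log2 fold change of SAFit2 over vehicle (horizontal axis) with its 95% interval for each gene (vertical axis) after early and late gel, from limma, with filled points for called changes. Ache after late gel, at -0.76, is the only filled point, and the intervals of Slc5a7, Slc18a3 and Mnx1 span more than 3 log2 units.

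In the mean of the early and late effects, 0 of the 9 genes reached an unadjusted P below 0.05 (13.2% of all genes did), also with limma voom. For the early effect minus the late effect, limma and limma voom called 0 genes (0%), and 1 member, Ache, had an unadjusted P below 0.05, against 4167 of all genes (24.9%). Between vehicle groups, Late against Early, 9.11% of genes were called and again 1 member, Ache, 0.60 higher on the log2 scale (SE 0.19, limma adjusted P = 0.0433). That call held in 11 of 22 fits with a mouse left out (0.48 to 0.75), and was lost without Early SAFit2 mouse 4 or 5, without any Early vehicle mouse but mouse 1, or without Late vehicle mouse 1, 3, 4 or 5. Between SAFit2 groups 20.5% of genes were called and 0 members, of which 0 had an unadjusted P below 0.05. Exact permutation tests over the 462 splits of 11 mice gave two-sided, unadjusted P values of 0.374 or more for every member but Ache within the Late mice, and of 0.225 or more for all 9 within the Early mice.

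Ache was thus the exception, and its values per mouse are given here. It stood at 6.78, 7.09, 7.39, 7.02 and 6.93 log2 CPM in the Early SAFit2 mice and at 6.92, 6.75, 6.80, 6.28 and 6.37 in the Late SAFit2 mice. The Early vehicle mice ran from 6.15 to 7.34 (median 6.80) and the Late vehicle mice from 6.63 to 7.82 (median 7.53). The Late vehicle group was the highest, with mice 2 and 6 of it inside or close to the range of the Late SAFit2 mice, so those groups overlapped. Late vehicle mice are shared by the late effect and by the comparison of vehicle groups, which are therefore not independent. The exact permutation test gave P = 0.0238 for the late effect (two-sided, 462 splits, 1 of 18 such tests on members, unadjusted) and P = 0.225 for the early effect. The early and late effects on Ache differed by 1.02 log2 units (SE 0.28, limma adjusted P = 0.12; two-sided permutation over 213444 splits P = 0.00658, unadjusted).

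The level of Ache, a gene of 58.7% GC, followed a property of the library. For each library a slope was taken of log2 level on gene GC content, which ran from -0.48 to 0.49 log2 units per 10 percentage points of GC. With group means removed, Ache correlated with this slope at r = 0.934 (rho = 0.894, permutation P = 1e-05, adjusted P = 9e-05 over 18 relations), with 0.873 in Early and 0.974 in Late mice, 0.904 without the 2 farthest mice and 0.943 without the 3 libraries. All 5 Late SAFit2 libraries had a slope below 0 (-0.48 to -0.05), and 4 of the 6 Late vehicle libraries one above 0.25. After a correction of each library for gene GC content and length, the late change of Ache was -0.21 (limma adjusted P = 0.23), and 0 of all genes were called late. Whether this correction also removed an effect of treatment was not tested. The change of Ache between vehicle groups was 0.53 after the correction (limma adjusted P = 6.16e-05) and remained called.

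The call for Ache also rested on single mice. When each of the 22 mice was left out in turn, its late change ran from -0.91 to -0.67 and was called in 15 of 22 fits, with adjusted P values from 0.00397 to 0.101. The call was lost without Late SAFit2 mouse 2, 4 or 5, or without Late vehicle mouse 1, 3, 4 or 5, and without any of these mice 1 to 8 genes of the whole table were called late. Without Late SAFit2 mice 3 and 5, which hold muscle RNA, it was -0.73 (limma adjusted P = 0.12). Over all alternatives the adjusted P of the late change ran from 0.000248, with library quality weights, to 0.23, with the GC and length correction. After the same GC and length correction, Ache moved more closely with the block, at r = 0.569 with Chat (permutation P = 0.00457, unadjusted), 0.560 with Slc5a7 and 0.764 with Mnx1.

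**Figure D5:**
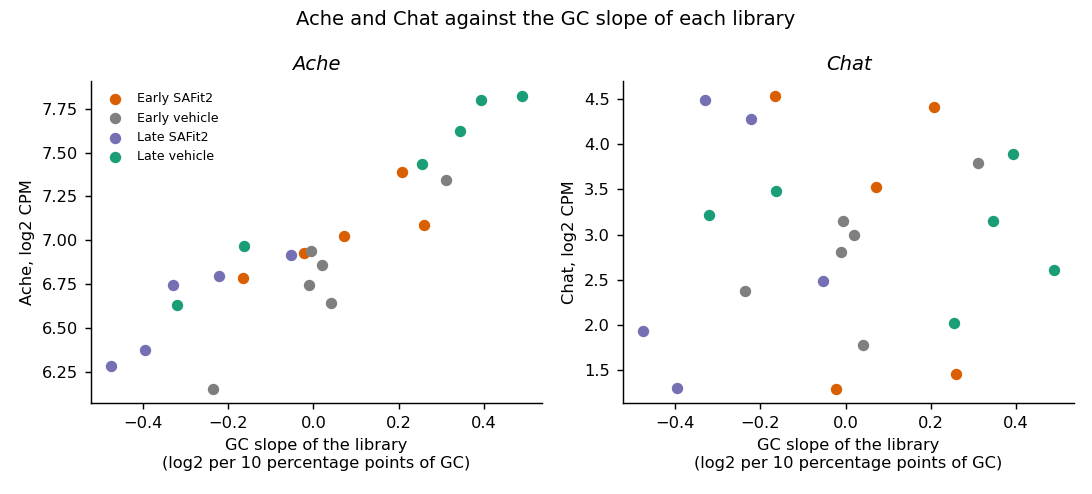
Log2 CPM of Ache (left) and Chat (right) in each mouse against the GC slope of its library (horizontal axes, log2 units per 10 percentage points of GC), colored by group. Ache climbs with the slope from 6.28 at -0.48 to 7.82 at 0.49, whereas Chat scatters (r = 0.0199 with group means removed).

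The GC content of the 3 transmitter genes differs, at 40.8% for Slc5a7, 54.3% for Chat and 61.2% for Slc18a3, and so did their ratios among libraries. Slc5a7 minus Slc18a3, in log2 CPM within a library, was 2.17 ± 0.72 (SD, n = 5) after late SAFit2 gel and 0.67 ± 0.9998 (SD, n = 6) after late vehicle gel. In the early groups it was 1.14 ± 0.72 with SAFit2 and 1.23 ± 0.52 with vehicle. The Late groups differed by 1.504 log2 units (two-sided exact permutation P = 0.0346, unadjusted, 1 of 3 such differences between the transmitter genes), and their values overlapped, with a lowest of 1.46 in Late SAFit2 and a highest of 2.04 in Late vehicle. Slc5a7 minus Slc18a3 correlated with the GC slope at r = -0.851 (rho = -0.870, permutation P = 8e-05, adjusted P = 0.00036), with -0.687 in Early and -0.925 in Late mice, -0.769 without the 2 farthest mice and -0.881 without the 3 libraries. In the block itself, removing the GC and length dependence raised the lowest r among the 21 pairs from 0.727 to 0.814.

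Among 20 further motor neuron genes, none was called after early or late gel. Stac2, an adaptor of voltage-gated calcium channels, changed by -0.42 after late gel (SE 0.16, limma adjusted P = 0.0731). Between vehicle groups Esrrb and Esrrg, orphan nuclear receptors, Esrrg being known in gamma motor neurons, rose by 0.84 and 0.59 on the log2 scale (limma adjusted P = 0.0378 and 0.0381), 2 of 20 genes against 9.11% of all genes. Between SAFit2 groups Esrrg rose by 0.61 (adjusted P = 0.0295) and Stac2 fell by 0.61 (adjusted P = 0.0131), 2 of 20 against 20.5% of all genes. In the mean of both effects Esrrg was 0.33 higher at an unadjusted limma P of 0.0186. The median change of these 20 genes was 0.27 early and -0.11 late, against 0.01 and -0.05 over all genes.

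Among 23 tested genes of acetylcholine reception and handling, 2 were called after late gel. Ly6h, a modulator of nicotinic receptors, fell by 1.10 on the log2 scale (SE 0.27, limma adjusted P = 0.0324) and Chrna4, a nicotinic receptor subunit, fell by 0.54 (SE 0.16, adjusted P = 0.0359), 2 of 23 against 12.1% of all genes. Bche, the second cholinesterase, was 0.53 higher without passing the test (adjusted P = 0.0528). Lynx1, another modulator of nicotinic receptors, was at -0.41 (adjusted P = 0.0661). Between SAFit2 groups, Late against Early, 2 of the 23 genes were called higher and 3 lower, against 20.5% of all genes called. Bche rose by 0.75 (adjusted P = 0.00821) and Slc44a1, a choline transporter-like protein, by 0.37 (adjusted P = 0.00639). Among the lower genes, Ly6h fell by 1.03 (adjusted P = 0.0120) and Lynx1 by 0.48 (adjusted P = 0.0314). The median of the 23 changes was 0.10 early and -0.30 late. None of the late calls remained after the GC and length correction, which left 0 genes in the table called.

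Of 25 dorsal horn genes 6 were called after late gel, against 12.1% of all genes, with Nts (0.68) and Rorb (0.63) higher, and 4 lower, led by Lbx1 (-1.47), Sst (-0.71) and Gbx2 (-1.16), with limma adjusted P values of these 5 from 0.0324 to 0.0434. None of 16 tested ventral interneuron genes was called late. Calb1, which had the most reads of them, was at 0.36 (adjusted P = 0.169) and rose by 0.54 between SAFit2 groups (adjusted P = 0.0463). None of 7 sensory ganglion genes was called, with Th at -0.44 (adjusted P = 0.278) and Avil at -0.79 (adjusted P = 0.323). Of 10 Schwann cell and nerve root genes Mal, a myelin protein, rose by 0.36 (adjusted P = 0.0458), and Dhh, a Schwann cell signal, fell by 2.22 between SAFit2 groups (adjusted P = 0.0336). Of 10 skeletal muscle genes Tnnt3 rose by 3.30 (adjusted P = 0.0476), with its highest values in Late SAFit2 mice 3 and 5. These late calls, 1 of 10 genes in each of both lists, stand against the same 12.1% of all genes. Myh4, Tnnc2 and Acta1 were at 3.59, 3.17 and 1.44 without passing the test (adjusted P = 0.0605, 0.0570 and 0.105). Pvalb, also on the muscle list, rose by 0.60 between SAFit2 groups (limma adjusted P = 0.0279). It stood at 5.81 to 7.26 log2 CPM over all libraries, where Myh4 ran from -3.15 to 6.17, so Pvalb did not mark muscle RNA here.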

How the data were processed

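Total RNA from L4 to L6 cord was made into strand-specific mRNA libraries (NEBNext Ultra II Directional) of 22 mice. Per the study's methods and the labels, the authors trimmed reads (Trimmomatic is listed), aligned them to mm10 (HISAT2 is listed), counted them per gene with featureCounts and normalized library sizes by the trimmed mean of M-values. Tool versions are not given in the sources used here. The deposited values are log2 CPM with a floor of -3.15. They were checked to be whole reads on a linear scale (100.0% of values within 0.02 of a whole read), with no scaling by gene length.

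Genes that reached a log2 CPM of -1 in no fewer than 5 libraries (16765 of 17306) were fitted with limma 3.58.1 in R 4.3.3, with a variance trend and a mean for each of the 4 groups, which share an estimate of the spread. Genes were called at a Benjamini-Hochberg adjusted P below 0.05 and 1.2-fold, the study's thresholds. The mean of both effects was read at an unadjusted P below 0.05. Single genes were also tested by two-sided exact permutation of mice, and relations by 100000 within-group permutations on values with group means removed (numpy 2.4.6, scipy 1.17.1). The fit was tested on simulated data. Genes came from GENCODE M21, and promoters from RefSeq.

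The members and lists were chosen with earlier results of these data known. The rule for named genes was all members, in each list the genes called in any comparison (at most 5, lowest late P first) or otherwise the 2 of lowest late P, defining markers, and the 5 other genes closest to Chat. Replicates are separate mice by the labels, and 384 genes without a symbol stayed in the fit. Alternatives were no filter, a pseudocount of 0.5, median centring, library quality weights, the 2 groups alone, a replicate block, a GC and length correction (over the 16213 tested genes with a GC value), limma voom on recovered reads, and leaving out libraries.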

Additional observations from a re-analysis of the deposited data

Results flagged for a closer look

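The effect of SAFit2 on Ache differed between early and late gel by 1.018 log2 units (0.26 after early and -0.76 after late gel). A two-sided permutation of treatment labels within each timing gave P = 0.00658 (unadjusted, 213444 splits), and limma gave an adjusted P of 0.12 over all genes. Early mice and Late mice are separate batches, and with a GC and length correction the difference was 0.39 (limma adjusted P = 0.321). Over all alternatives the adjusted P ran from 0.00142, with library quality weights, to 0.321.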

How the results depend on the processing

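Precision was limited by the spread of these genes between mice, and for Mnx1 and Isl1 by few reads. The replicate numbers did not pair the mice, since 2 of 10 same-numbered pairs correlated over 0.1 (r from -0.236 to 0.317). With the replicate block the late count stayed at 1 member called and the mean effect gave 1 (Ache) in place of 0. The late count of 1 became 0 with the 2 groups alone, with the GC and length correction (with or without the block), and without the 2 libraries with muscle RNA. The count in the mean effect became 3 with quality weights (Ache, Calca and Chodl), and that of the difference of effects 1. The comparison of vehicle groups went from 1 to 0 without the 2 muscle libraries. With each mouse left out in turn these 4 counts ran from 0 to 1, with 1 reached in the difference of effects without Late vehicle replicate 6, and in the mean effect without Early vehicle replicate 5 or Late vehicle replicate 2 or 6.

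Over all genes, the late count of 2021 was 6381 with quality weights, 3157 with the block, 876 with limma voom, 1 without the muscle libraries and 0 with the 2 groups alone or the GC and length correction. The difference of effects went from 0 to 5082 with quality weights, where 13 genes were also called early. The mean effect went from 2215 to 6396 with weights and 1362 with the GC and length correction (1346 with the block as well). The vehicle comparison went from 1527 to 5067 with weights, 3014 with the GC and length correction and 2918 with the block added, and the SAFit2 comparison from 3437 to 5162 with weights and 1980 without the muscle libraries.

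No early or late change of a member other than Ache was called in the main fit, and several turned direction. Early, with quality weights the log2 change was 0.18 for Slc5a7, 0.50 for Slc18a3, 0.35 for Mnx1 and 0.33 for Prph, with a pseudocount of 0.5 it was 0.0463 for Mnx1 and 0.0153 for Prph, and with the GC correction and the block 0.00521 for Isl1. Late, with quality weights it was 0.48 for Chat and 0.36 for Prph, with the GC correction 0.14 and 0.24, with the block added 0.079 and 0.11, with limma voom 0.0455 for Chat, and with the block alone -0.32 for Mnx1. With each mouse left out, early changes ran from -0.14 to 0.67 for Chat, -0.84 to 0.76 for Slc5a7, -0.59 to 0.62 for Slc18a3, -0.44 to 0.22 for Isl1, -0.51 to 0.41 for Mnx1, -0.51 to 0.66 for Prph, -0.0688 to 0.45 for Calca and -0.32 to 0.83 for Chodl. Late changes ran from -0.56 to 0.23 for Chat, -0.55 to 0.44 for Mnx1, -0.83 to 0.13 for Prph, -0.17 to 0.72 for Chodl and -0.91 to -0.67 for Ache. The cause of these turns was not tested.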

Other observations

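The spread among mice was not the same in all groups. For Chat the SD of log2 CPM was 1.58 in Early SAFit2 against 0.688 in Early vehicle mice, and 1.42 in Late SAFit2 against 0.661 in Late vehicle mice. For Prph the SDs were 2.05 and 1.17 early, and 1.63 and 0.770 late. For Ache the order was the opposite, 0.225 and 0.390 early, and 0.278 and 0.484 late. The differences in spread were not tested, and genes that follow each other over the same mice do not count separately.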
